A study of Mus musculus with 81 samples.

Results

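Tiam1 and Tiam2 are guanine nucleotide exchange factors (GEFs) for the small GTPase Rac, and both are encoded on the chromosome segments that Ts65Dn (Ts) mice carry in an extra copy. They were examined with 8 further genes of Rac signaling that were chosen by name: the GEFs Kalrn, Trio, Dock3 and Arhgef7, the GTPases Rac1 and Rac3, and the effector kinases Pak1 and Pak3. All 10 were found among the 57010 gene identifiers counted. RNA-seq was performed on CA1 pyramidal neurons (CA1 PNs), CA3 pyramidal neurons (CA3 PNs) and dentate granule cells (DGCs) that had been cut by laser capture microdissection from hippocampal sections of male mice at 6 MO. The mice were Ts or disomic (2N). All were offspring of Ts dams, which ate a normal choline diet (ChN, 1.1 g/kg choline) or a supplemented one (ChP, 5.0 g/kg) while pregnant and nursing. ChN groups came from 6 2N and 6 Ts mice (CA1 PNs: 6 2N and 5 Ts libraries; CA3 PNs and DGCs: 6 and 6). ChP groups came from 7 2N and 9 Ts mice (CA1 PNs and DGCs: 7 2N and 9 Ts libraries; CA3 PNs: 7 and 7).

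The extra chromosome of Ts mice joins the distal part of mouse chromosome 16, which holds Tiam1 and most mouse counterparts of human chromosome 21 genes, to the centromeric part of chromosome 17. The chromosome 17 part holds Tiam2 and genes without a counterpart on the human chromosome, which limits Ts mice as a model of the human trisomy. Rac cycles between an inactive GDP-bound and an active GTP-bound form. GEFs load it with GTP, GTPase-activating proteins (GAPs) end the signal, and active Rac drives actin assembly through p21-activated kinases (PAKs) and the WAVE and Arp2/3 complexes. In forebrain neurons this cycle shapes dendrites and spines, and Tiam1 couples NMDA and EphB receptors to Rac.

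In the GRCm39 annotation, Tiam1 (ENSMUSG00000002489) lies on the minus strand of chr16:89583994-89941086 and Tiam2 (ENSMUSG00000023800) on the plus strand of chr17:3376808-3581619. Kalrn is also on chromosome 16, at chr16:33789443-34393902, but outside the triplicated segment. Trio lies at chr15:27730737-28026029, Dock3 at chr9:106770024-107109131 and Arhgef7 at chr8:11777330-11885414. Rac1 lies at chr5:143489389-143514493, Rac3 at chr11:120612279-120614796, Pak1 at chr7:97437327-97562132 and Pak3 at chrX:142301303-142580792. Hence 2 of the 10 genes were in 3 copies in Ts mice.

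Depth ran from 358355 to 4744036 estimated counts a library. Means of marker genes matched the named population in DGCs (dentate markers 7.14 to 7.69 log2 CPM) and CA3 PNs (CA3 markers 6.45 to 7.07), but CA1 markers spanned 2.96 to 7.97 in CA1 libraries. In 10 of the 27 CA1 libraries the mean of 6 CA2 markers (among them Amigo2 and Rgs14) was 5.58 to 7.83 log2 CPM, against 1.8 to 3.16 in the other 17. These 10 comprised 5 2N and 5 Ts libraries. The CA1 library labelled 2N of mouse 17-154 (ChN) had triplicated genes at the Ts level (mean 5.36 log2 CPM for chromosome 16 genes, against 4.64 to 5.01 in the other 12 2N and 5.13 to 5.43 in the 14 Ts CA1 libraries). Both other libraries of that mouse were at the 2N level. The CA3 library of mouse 15-145 (ChN) bears a Ts label that conflicts with the 2N label of the CA1 and DGC libraries from that mouse. It was placed with the 2N group, and its mean of 4.92 lay nearer to the other 2N (4.64 to 4.85) than to the Ts CA3 libraries (5.16 to 5.34). The CA3 library of Ts mouse 15-140 (ChP) held dentate markers at 3.89 log2 CPM, against 2.14 or less in the other CA3 libraries.

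Promoter windows of Tiam1 and Tiam2 are shown because transcripts of both genes were far more abundant in DGCs than in CA3 PNs. Each runs from 250 bases before to 50 bases after a RefSeq start on GRCm38.p6, a build other than that of the gene positions above. First and second number the windows found, in the direction of transcription, and need not be the most upstream starts of a gene. The longest annotated transcripts, Tiam1-217 and Tiam2-211, begin at 89941086 and 3376808 on GRCm39. The windows were not matched to transcripts across the builds. They are written in the direction of transcription, and capitals mark E-boxes (CANNTG).
Tiam1, first start, minus strand of chr16:89974650-89974949: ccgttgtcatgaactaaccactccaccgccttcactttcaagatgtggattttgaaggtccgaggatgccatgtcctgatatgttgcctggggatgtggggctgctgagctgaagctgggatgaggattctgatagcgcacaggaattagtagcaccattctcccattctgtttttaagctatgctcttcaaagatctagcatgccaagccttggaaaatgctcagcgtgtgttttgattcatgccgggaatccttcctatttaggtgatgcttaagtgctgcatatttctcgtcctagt
Tiam1, second start, minus strand of chr16:89818303-89818602: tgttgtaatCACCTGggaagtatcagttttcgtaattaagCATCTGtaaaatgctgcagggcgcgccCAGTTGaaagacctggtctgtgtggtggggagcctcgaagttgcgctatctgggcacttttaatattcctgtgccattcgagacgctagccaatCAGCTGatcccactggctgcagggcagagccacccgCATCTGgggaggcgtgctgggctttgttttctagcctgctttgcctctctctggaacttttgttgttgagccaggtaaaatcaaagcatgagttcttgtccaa
Tiam2, first start, plus strand of chr17:3396957-3397256: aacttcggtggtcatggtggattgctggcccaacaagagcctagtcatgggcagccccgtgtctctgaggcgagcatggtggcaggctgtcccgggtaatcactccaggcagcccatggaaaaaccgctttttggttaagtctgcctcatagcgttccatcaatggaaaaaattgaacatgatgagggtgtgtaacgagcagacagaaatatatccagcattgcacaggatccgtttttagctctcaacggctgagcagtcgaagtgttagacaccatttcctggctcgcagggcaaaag
Tiam2, second start, plus strand of chr17:3482065-3482364: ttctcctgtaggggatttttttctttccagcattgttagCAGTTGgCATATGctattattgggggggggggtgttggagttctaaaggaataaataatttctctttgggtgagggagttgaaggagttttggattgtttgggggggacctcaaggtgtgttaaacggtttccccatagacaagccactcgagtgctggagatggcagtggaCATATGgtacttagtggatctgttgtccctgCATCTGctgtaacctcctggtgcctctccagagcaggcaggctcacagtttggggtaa

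Neither first start of these genes had an E-box within its window, whereas the second start of Tiam1 had 5 and that of Tiam2 had 4. E-boxes occur in 72.3% of 32851 such windows. GC boxes (GGGCGG, either strand) occur in 35.7% of windows and in none of those listed for Tiam1 or Tiam2. The windows of both genes held 47.0% to 51.3% G and C at the starts shown, against a median of 52.7% over all windows. The first windows of Kalrn and Pak3 also held no GC box, at 60.3% and 59.0% G and C. Those of Trio, Dock3, Arhgef7, Rac3 and Pak1 held 3, 3, 5, 3 and 4 GC boxes, and 66.7% to 78.3% G and C. Windows were found for 9 of the 10 genes, Rac1 being the exception. These counts describe letters in the windows and say nothing of factor binding.

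To determine whether the triplicated GEFs were expressed at a higher level in Ts mice, libraries of both genotypes were compared within each population and diet. In DGCs, Tiam1 and Tiam2 rose in Ts mice on both diets by 1.40-fold to 1.76-fold, and no other gene of the 10 passed the adjusted threshold on either diet. Values are in CPM, estimated counts scaled to library size by TMM, and a log2 fold change (LFC) is Ts minus 2N. In DGCs of ChN mice, Tiam1 ran from 619 to 666 CPM in 2N (median 644, n = 6) and from 872 to 1040 CPM in Ts (median 932, n = 6). The lowest Ts library lay above the highest 2N library. The LFC was 0.54 (SE 0.059), a fold of 1.45 with an adjusted p of 1.2e-09 (edgeR). In ChP mice the 2N libraries ran from 495 to 683 CPM (median 614, n = 7) and the Ts libraries from 828 to 976 CPM (median 927, n = 9). Again the genotypes did not overlap, and the LFC was 0.60 (SE 0.062, fold 1.51, adjusted p = 8.1e-12). In such captured tissue, more transcript a cell and more cells of a type cannot be told apart. Dentate markers averaged 7.14 to 7.69 log2 CPM in 2N and 7.19 to 7.57 in Ts DGC libraries, so their ranges overlapped.

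Tiam2 was less abundant in DGCs than Tiam1 and less evenly raised. In ChN mice it ran from 69.1 to 86.3 CPM in 2N (median 78.7) and from 100 to 165 CPM in Ts (median 143), with no overlap. The LFC was 0.82 (SE 0.106, fold 1.76, adjusted p = 2.5e-07). In ChP mice it ran from 73.7 to 136 CPM in 2N (median 103) and from 109 to 183 CPM in Ts (median 142). There the genotypes overlapped, with 6 of the 9 Ts libraries above the highest 2N library and all 9 above the 2N median. The LFC was 0.48 (SE 0.105, fold 1.40, adjusted p = 0.0073). This call rested on 1 library, since without 2N mouse 14-125 the LFC was 0.40 and the adjusted p 0.051. In a fit of all DGC libraries that averaged the diets, which was added after the data were seen, Tiam1 had an LFC of 0.58 (SE 0.043, adjusted p = 5.1e-23) and Tiam2 of 0.66 (SE 0.076, adjusted p = 5.4e-11).

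**Figure D1:**
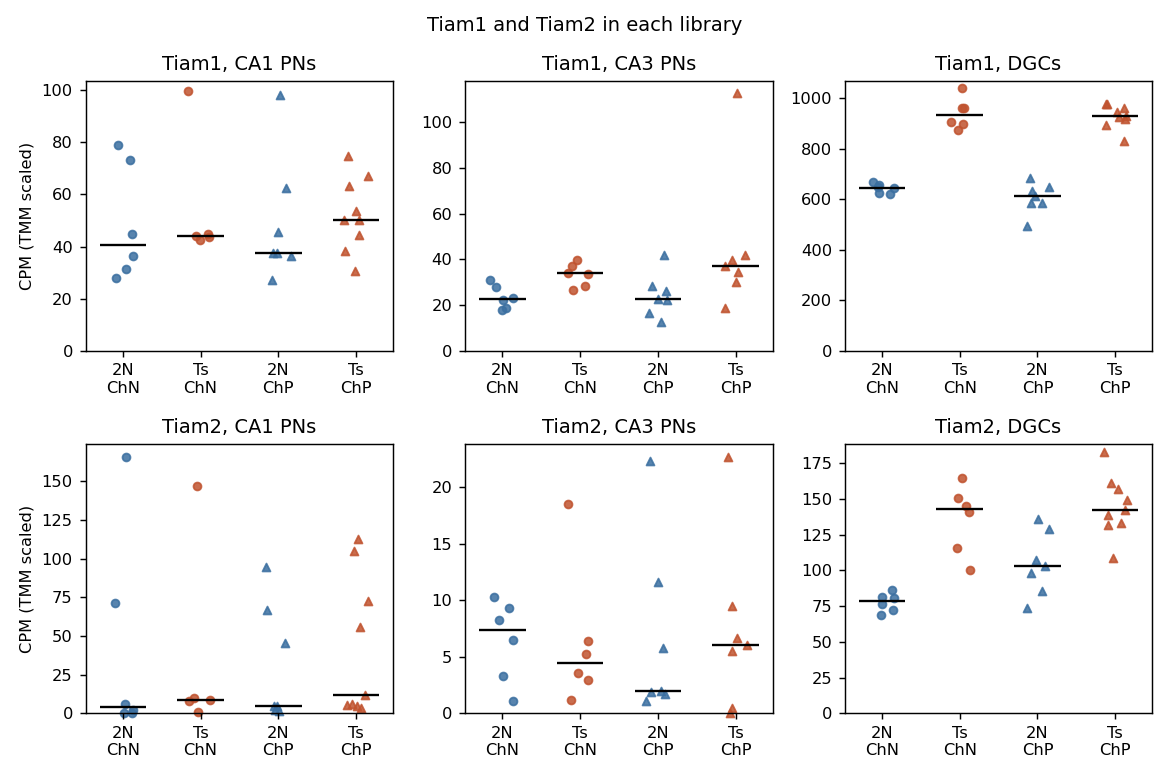
Level of Tiam1 (top) and Tiam2 (bottom) in CPM on linear axes that start at 0, with 1 point a library, by genotype and diet (circles ChN, triangles ChP) in CA1 PNs, CA3 PNs and DGCs; black lines are group medians. In DGCs the Tiam1 values of 2N (495 to 683) and Ts libraries (828 to 1040) are apart. In CA1 PNs 10 libraries, 5 of each genotype, hold Tiam2 at 45.6 to 166 CPM, and the other 17 at 12.2 CPM or less.

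Among genes of the same segments, Tiam1 was near the middle in DGCs. The study lists these genes as triplicated and expressed in these samples. Of the 64 other listed chromosome 16 genes tested in ChN mice, 62 had an LFC above 0. With an adjusted p under 0.05, 23 of the 64 rose and none fell, beside 0.588% of all genes called. The 64 genes had a median LFC of 0.56, and 33 had a higher LFC than Tiam1. On ChP 65 of 66 had an LFC above 0, and 26 rose past that threshold (beside 0.445%). The median was 0.60, and 33 again lay above Tiam1. Of 24 other chromosome 17 genes, 23 on ChN and 24 on ChP had an LFC above 0, and 8 rose past the threshold in each diet. Their median LFC was 0.66 on ChN, where 3 genes lay above Tiam2, and 0.58 on ChP, where 17 did. Sod1, which encodes a superoxide dismutase and is the next gene tested in DGCs above Tiam1, had an LFC of 0.71 (SE 0.102, adjusted p = 4.1e-06) on ChN. Grik1, the next tested below Tiam1, had an LFC of 1.0 (SE 0.567, adjusted p = 0.67). Gm49797, a long noncoding RNA not among the listed genes, is the next tested below Tiam2 and had an LFC of 0.74 (SE 0.344, adjusted p = 0.56). Tfb1m, the next tested gene above Tiam2, overlaps the 3′ end of Tiam2 on the other strand (chr17:3563847-3608190). Reads there could be shared, since the strand setting of the counting is not given in the sources used here. The LFC of Tfb1m in DGCs was 0.60 (adjusted p = 0.87) on ChN and 0.53 (adjusted p = 0.90) on ChP.

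In CA3 PNs, Tiam1 was far less abundant and its difference passed only the unadjusted threshold, and Tiam2 was near the limit of the depth. In ChN mice Tiam1 ran from 18.0 to 31.0 CPM in 2N (median 22.6) and from 26.5 to 39.7 CPM in Ts (median 34.0). All 6 Ts libraries lay above the 2N median and 4 above the highest 2N library. The LFC was 0.56 (SE 0.16), with an unadjusted p of 0.0014 and an adjusted p of 0.13. Of the 65 other listed chromosome 16 genes tested, 34 had a higher LFC. In ChP mice the 2N libraries ran from 12.5 to 41.7 CPM (median 22.6) and the Ts libraries from 18.8 to 113 CPM (median 37.1). The library at 113 CPM was that of mouse 15-140, which carried dentate markers. With it the LFC was 0.90 (SE 0.38, unadjusted p = 0.034, adjusted p = 0.95), and 5 of 66 such genes had a higher one. Without that library the LFC was 0.53 (SE 0.199, adjusted p = 0.76). Tiam1 was no longer a differentially expressed gene (DEG, unadjusted p under 0.05) without 2N mouse 15-296, 15-334 or 16-273 (LFC 0.87, 0.88 and 0.81). With both diets averaged and the library of mouse 15-140 left out, Tiam1 rose in CA3 PNs (LFC 0.54, SE 0.128, adjusted p = 0.013). With that library the LFC was 0.73 (SE 0.215) and the adjusted p 0.18. With the CA3 library of mouse 15-145 under its own label, the ChN LFC of Tiam1 was 0.45 (adjusted p = 0.66).

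Tiam2 in CA3 PNs ran from 1.09 to 10.3 CPM in 2N (median 7.38) and from 1.21 to 18.5 CPM in Ts (median 4.42) on ChN. The LFC was -0.23 (SE 0.57), and each of the 24 other chromosome 17 genes had a higher LFC. On ChP it ran from 1.09 to 22.3 CPM in 2N and from 0 to 22.7 CPM in Ts, with an LFC of 0.18 (SE 0.83). A Ts library of mouse 17-03 had no Tiam2 count, which allows up to 3.33 CPM. The 95% intervals were -1.34 to 0.88 on ChN and -1.45 to 1.81 on ChP. They held both 0 and the LFCs of Tiam2 in DGCs (0.82 and 0.48).

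In CA1 PNs, neither GEF passed a threshold for genotype, and both were higher in libraries with high CA2 markers. Tiam1 on ChN ran from 27.9 to 79.0 CPM in 2N (median 40.5) and was at 42.5, 43.6, 44.0, 44.8 and 99.9 CPM in the 5 Ts libraries. The genotypes overlapped. The LFC was 0.14 (SE 0.34), below that of 57 of the 61 other listed chromosome 16 genes tested. Without the library labelled 2N of mouse 17-154 it was 0.31 (SE 0.337, adjusted p = 1). On ChP Tiam1 ran from 27.1 to 98.1 CPM in 2N and from 30.5 to 74.9 CPM in Ts, with an LFC of 0.10 (SE 0.24). There 59 of 65 such genes had a higher LFC. Tiam2 on ChN ran from 0 to 166 CPM in 2N (median 4.37) and was at 0.614, 8.3, 8.8, 9.67 and 147 CPM in Ts. Both libraries at 0 were 2N (mice 15-147 and 17-172) and allow up to 2.88 and 3.34 CPM. Tiam2 was therefore under the minimum of the filter in this comparison and was not tested. On ChP it ran from 1.64 to 94.4 CPM in 2N and from 3.21 to 113 CPM in Ts, with an LFC of 0.45 (SE 0.92).

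In CA1 PNs the level of Tiam2 differed widely with the CA2 markers. In the 10 libraries with high CA2 markers Tiam2 ran from 45.6 to 166 CPM (median 83.4), and in the other 17 from 0 to 12.2 CPM (median 4.63). No library of either kind lay between. Tiam1 ran from 45.6 to 99.9 CPM (median 70.1) against 27.1 to 50.3 CPM (median 38.2), a smaller step with a little overlap. Dock3 went the other way, from 158 to 246 CPM (median 204) against 235 to 306 CPM (median 272). The high libraries also had lower CA1 markers (2.96 to 7.15 against 7.51 to 7.97 log2 CPM) and higher CA3 markers (3.93 to 6.45 against 2.25 to 3.27), with dentate markers at 1.04 to 2.11 against 1.12 to 1.75. Markers of excitatory neurons were higher without overlap (10 to 10.61 against 9.67 to 9.9). Those of inhibitory neurons (4.48 to 5.37 against 3.83 to 4.89), astrocytes (4.06 to 4.74 against 3.6 to 4.56), oligodendrocytes (3.84 to 5.23 against 3.4 to 4.57), endothelium (2.01 to 2.95 against 1.65 to 2.64) and microglia (1.81 to 2.47 against 1.33 to 2.56) overlapped. The choroid plexus list ran from 2.63 to 6.07 against 5.5 to 6.59, all of it from Kl, as Ttr and Folr1 were at 0 in all 27 CA1 libraries. The part of any of these in the Tiam2 levels was not tested. These libraries were told apart by the data and not by a label, so their values are a description with no test.

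Within the 17 libraries with low CA2 markers, Tiam1 ran from 27.1 to 44.7 CPM in 2N (median 36.3) and from 30.5 to 50.3 CPM in Ts (median 44.0). Tiam2 ran from 0 to 6.23 CPM in 2N (median 2.42) and from 0.614 to 12.2 CPM in Ts (median 5.76). With both diets averaged and the 10 high libraries left out, the LFC was 0.32 (SE 0.136, unadjusted p = 0.023, adjusted p = 0.49) for Tiam1 and 1.18 (SE 0.478, unadjusted p = 0.017, adjusted p = 0.46) for Tiam2. With the CA2 marker mean as a covariate in place of leaving libraries out, Tiam2 on ChP had an LFC of 0.87 (SE 0.193, adjusted p = 0.025) and Tiam1 of 0.21. Both settings were chosen after the data were seen.

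**Figure D2:**
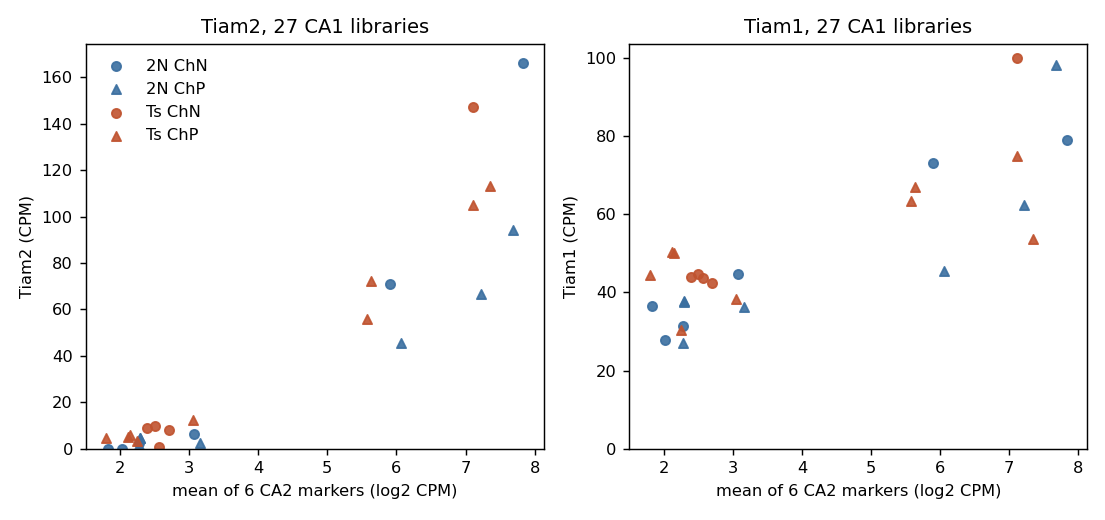
Level of Tiam2 (left) and Tiam1 (right) in CPM on linear axes from 0, against the mean log2 CPM of 6 CA2 markers, with 1 point for each of the 27 CA1 libraries by genotype (color) and diet (shape). The 10 libraries with a marker mean of 5.58 or more hold Tiam2 at 45.6 CPM or above, and the 17 at 3.16 or less hold it at 12.2 CPM or below, in both genotypes.

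In the edgeR fits of each diet with all libraries, members were called by genotype in DGCs and not in CA1 or CA3 PNs. With an adjusted p under 0.05, 2 of 10 were called in DGCs on ChN (Tiam1 and Tiam2), beside 0.588% of all genes tested, and the same 2 on ChP, beside 0.445%. None was called in CA1 PNs on ChN (9 tested, beside 0.00814%) or ChP (beside 0.049%), nor in CA3 PNs on ChN (beside 0.662%) or ChP (beside 0.249%). The CA1 fits also called few of the other listed triplicated genes. On ChN 0 of 61 on chromosome 16 and 0 of 20 on chromosome 17 were called, though 59 and 19 had an LFC above 0. On ChP 6 of 65 and 1 of 24 were called, with 61 and 23 above 0. Hence the lack of a call in CA1 PNs does not show an unchanged level. At an unadjusted p under 0.05, 3 of 10 were DEGs in CA3 PNs on ChN (Tiam1, Pak1 and Pak3, beside 9.2% of all genes) and 4 in DGCs on ChN (Tiam1, Tiam2, Kalrn and Pak1, beside 8.5%). On ChP there was 1 in CA3 PNs (Tiam1, beside 4.99%) and 3 in DGCs (Tiam1, Tiam2 and Kalrn, beside 7.6%). In CA1 PNs there was none, beside 3.77% on ChN and 3.6% on ChP. Without single libraries the DEG count moved from 0 to 1 in CA1 PNs on ChN (17-21) and ChP (15-336), from 1 to 0 in CA3 PNs on ChP (15-296, 15-334 or 16-273) and from 3 to 5 in DGCs on ChP (15-336). Averaging the diets, edgeR made 0 calls in CA1 PNs (beside 0.173%), 0 in CA3 PNs (beside 0.676%) and 3 in DGCs (Tiam1, Tiam2 and Kalrn, beside 1.32%). In CA3 PNs limma-voom called Tiam1 (LFC 0.70, adjusted p = 0.026), as did edgeR without mouse 15-140 (LFC 0.54, adjusted p = 0.013). As DEGs, averaging gave 0 (beside 4.9%), 2 (beside 8.09%; 4 without 16-357 or 15-245) and 4 (beside 10.5%). The median LFC of the 10 genes in DGCs was 0.11 on ChN and 0.04 on ChP, and that of all genes 0.00 and 0.01.

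**Figure D3:**
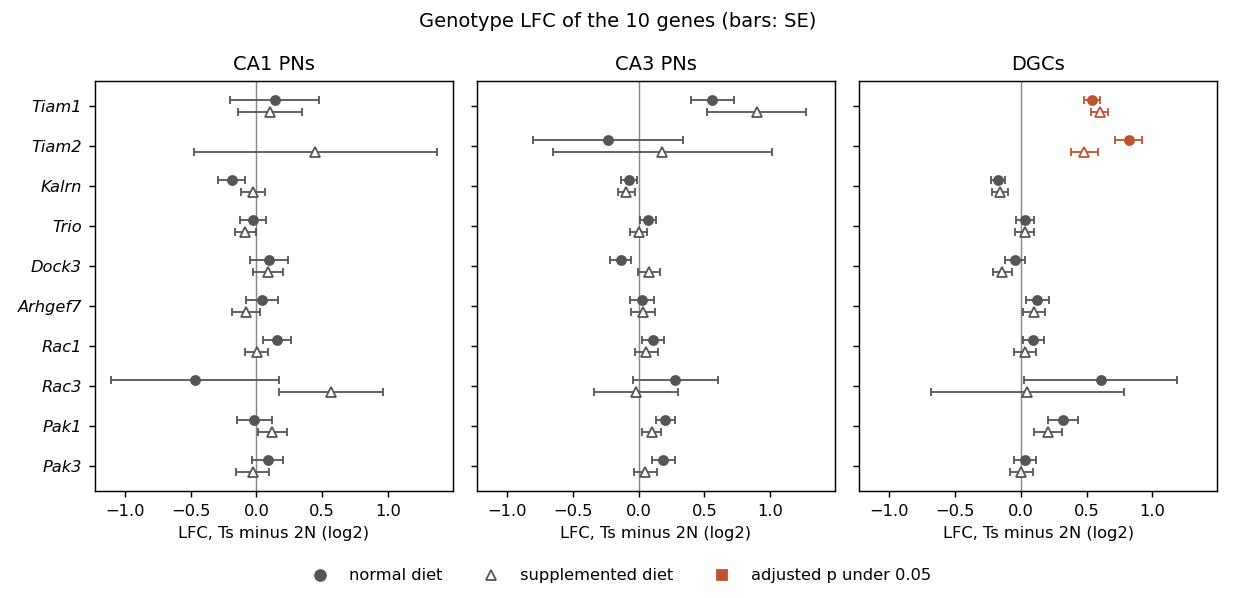
LFC (Ts minus 2N, log2) of the 10 genes in CA1 PNs, CA3 PNs and DGCs, as filled circles for ChN and open triangles for ChP with bars of 1 SE; points in color have an adjusted p under 0.05, and Tiam2 was not tested in CA1 PNs on ChN. The colored points are Tiam1 (0.54 and 0.60) and Tiam2 (0.82 and 0.48) in DGCs.

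An LFC called in DGCs and not elsewhere does not show that the populations differ, so the difference itself was tested with the mouse as a block. No member passed the adjusted threshold in any of the 6 comparisons, beside 0%, 0% and 0.0224% of all genes on ChN and 0%, 0.00542% and 0.00542% on ChP (CA1 minus CA3, CA1 minus DGC and CA3 minus DGC). At an unadjusted p under 0.05, Pak1 alone passed, for CA1 minus DGC on ChN (-0.33, edgeR unadjusted p = 0.033), beside 875 of 17853 genes. For Tiam1 the LFC in CA1 PNs minus that in DGCs was -0.41 on ChN and -0.45 on ChP, neither past a threshold. Its LFC in CA1 PNs minus that in CA3 PNs was -0.41 on ChN and -0.68 on ChP (unadjusted p = 0.2 and 0.061).

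Among the GEFs outside the triplicated segments, Kalrn fell in DGCs with the diets averaged. Kalrn encodes kalirin, a large GEF of dendritic spines with isoforms for Rac. In DGCs on ChN it ran from 1700 to 1860 CPM in 2N (median 1760) and from 1310 to 1660 CPM in Ts (median 1630). Every Ts library lay below every 2N library, but the LFC was small at -0.18 (SE 0.053, unadjusted p = 0.0017, adjusted p = 0.16). The share of all genes whose groups separate in this way is not given here, so the separation carries no weight beyond that test. On ChP it ran from 1470 to 1990 CPM in 2N (median 1700) and from 1410 to 1690 CPM in Ts (median 1590), with overlap and an LFC of -0.16 (adjusted p = 0.32). Averaged over the diets the LFC was -0.16 (SE 0.04, adjusted p = 0.013), and it stayed past the threshold without each of the 28 DGC libraries in turn (adjusted p from 0.0021 to 0.039). In CA1 PNs Kalrn had LFCs of -0.19 and -0.03 and in CA3 PNs of -0.07 and -0.09, on ChN and ChP, none of them past a threshold.

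Trio is the paralog of Kalrn, Dock3 a Rac activator of another family, and Arhgef7 encodes beta-PIX, a GEF that binds PAKs. None of these was a DEG by genotype in any population on either diet. Trio LFCs lay between -0.08 and 0.07, with a span of 340 to 451 CPM in 2N and 357 to 500 CPM in Ts DGCs over both diets. Dock3 in DGCs on ChP ran from 278 to 329 CPM in 2N and from 241 to 325 CPM in Ts, with an LFC of -0.14 (SE 0.072, 95% interval -0.28 to 0.00, unadjusted p = 0.053). Arhgef7 in DGCs ran from 137 to 165 CPM in 2N and 162 to 202 CPM in Ts on ChN, where the LFC was 0.12 (SE 0.085, 95% interval -0.04 to 0.29).

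The GTPases themselves were not DEGs by genotype. Rac1, the Rac present in nearly all cells, had LFCs from 0.00 to 0.16 over the 6 comparisons. In DGCs on ChN it ran from 166 to 180 CPM in 2N and from 169 to 203 CPM in Ts, with an LFC of 0.09 (95% interval -0.07 to 0.26). In CA1 PNs on ChN it ran from 172 to 225 CPM in 2N and from 210 to 234 CPM in Ts, with an LFC of 0.16 (95% interval -0.05 to 0.37). Rac3, a Rac of neurons, was scarce, at 0 to 12.3 CPM over all libraries, so its LFCs carried SEs of 0.32 to 0.73 and could not bound a change of the size seen for Tiam1.

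Pak1 and Pak3, kinases that bind active Rac, had positive LFCs in DGCs and CA3 PNs that passed only the unadjusted threshold, where they passed one. Pak1 in CA3 PNs on ChN ran from 249 to 314 CPM in 2N (median 274) and from 288 to 351 CPM in Ts (median 320). The LFC was 0.20 (SE 0.071, unadjusted p = 0.0066, adjusted p = 0.27). In DGCs on ChN it ran from 60.9 to 134 CPM in 2N (median 108) and from 116 to 159 CPM in Ts (median 138), with an LFC of 0.32 (SE 0.114, adjusted p = 0.35). On ChP its LFC was 0.10 in CA3 PNs and 0.21 in DGCs (unadjusted p = 0.19 and 0.063). Pak3, on the X chromosome, had an LFC of 0.19 in CA3 PNs on ChN (SE 0.085, unadjusted p = 0.032, adjusted p = 0.47), and of 0.03 (95% interval -0.13 to 0.19) in DGCs. With the CA3 library of mouse 15-145 under its own label, Pak1 was no longer a DEG in CA3 PNs (LFC 0.12, unadjusted p = 0.12), and Pak3 had an LFC of 0.25 (unadjusted p = 0.0049).

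To determine whether other genes of the pathway differed by genotype, 127 genes of Rac signaling were listed, among them Rac GEFs, Rac GAPs, the PAK and LIM kinase branch, the WAVE and Arp2/3 branch, and Tiam partners and upstream receptors. No list gene was called in CA1 PNs, CA3 PNs or DGCs on either diet by edgeR, DESeq2 or limma-voom. As DEGs by edgeR on ChN, 3 of 108 tested genes were found in CA1 PNs (2.78%, beside 3.77% of all genes), 13 of 114 in the CA3 libraries (11.4%, beside 9.2%), and among 110 tested in DGCs also 13 (11.8%, beside 8.5%). On ChP these were 3 of 115 (2.61%, beside 3.6%), 0 of 120 (beside 4.99%) and 12 of 115 (10.4%, beside 7.6%). These shares thus lay near those of all genes, apart from the CA3 libraries on ChP, where no list gene was a DEG. In DGCs 7 were higher and 6 lower in Ts on ChN, and 6 were higher and 6 lower on ChP. With the diets averaged, 25 of 124 were DEGs in DGCs (20.2%, beside 10.5% of all genes), 13 higher and 12 lower. In CA1 PNs 6 of 123 were DEGs (4.88%, beside 4.9%) and in CA3 PNs 11 of 123 (8.94%, beside 8.09%).

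Of these 25, 3 rose with an adjusted p under 0.05 in DGCs, 3 of the 124 tested beside 1.32% of all genes. Arhgef6 encodes alpha-PIX, the sister GEF of Arhgef7. On ChN it ran from 1.92 to 6.49 CPM in 2N and from 5.47 to 9.86 CPM in Ts, and on ChP from 1.6 to 6.46 and from 0.974 to 16.6 CPM. Its LFC was 1.20 (SE 0.272, adjusted p = 0.0038), the adjusted p reaching at most 0.017 without any 1 library. Wasf3, a member of the WAVE family that activates Arp2/3, ran from 72.2 to 90.3 CPM in 2N and from 85.5 to 120 CPM in Ts on ChN, and from 60.6 to 88.2 and 82.4 to 106 CPM on ChP. Its LFC was 0.29 (SE 0.074, adjusted p = 0.014). Efnb3 encodes ephrin-B3, a ligand of EphB receptors, and ran from 61.9 to 94.7 CPM in 2N and from 74.7 to 126 CPM in Ts on ChN, with an LFC of 0.31 (SE 0.079, adjusted p = 0.017) over both diets. For both of these genes the genotypes overlapped. The call of Wasf3 was lost without any of 3 libraries (Ts 16-357, 2N 17-172, 2N 15-334; adjusted p up to 0.068) and that of Efnb3 without any of 5 (Ts 16-357, 2N 17-154, 17-21, 15-334 and 16-90; adjusted p up to 0.12). DESeq2 called the same 3 and Grin1, and limma-voom only Wasf3.

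**Figure D4:**
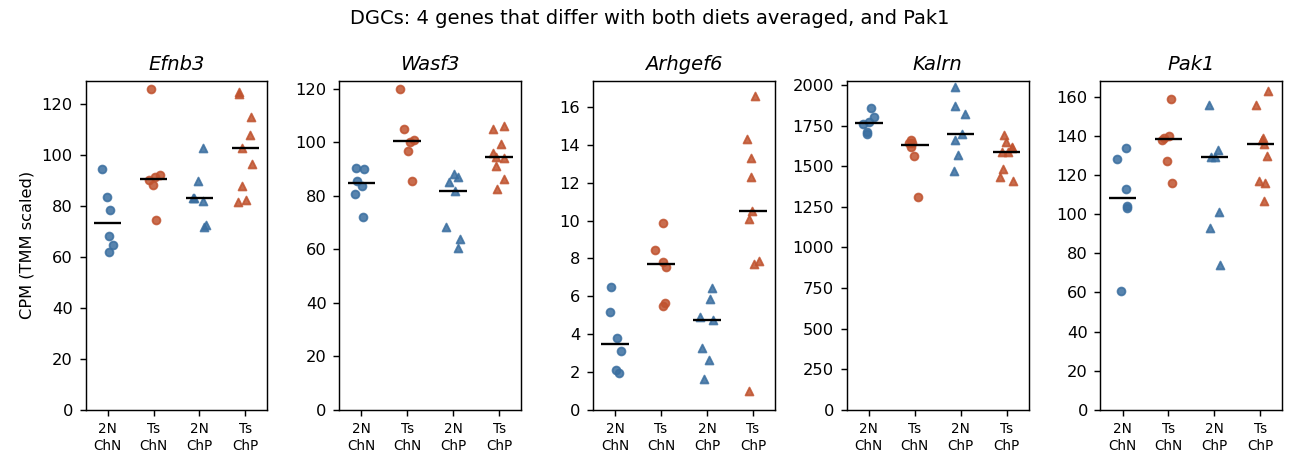
Level in DGCs of Efnb3, Wasf3, Arhgef6, Kalrn and Pak1 in CPM on linear axes from 0, with 1 point a library by genotype and diet (circles ChN, triangles ChP) and black lines at group medians. Kalrn on ChN is at 1310 to 1660 in Ts, below the 2N range of 1700 to 1860, and Arhgef6 is under 17 CPM in every library, with 1 Ts ChP library at 0.974.

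To determine whether maternal choline altered these genes, ChP was compared with ChN within each genotype (LFC as ChP minus ChN). No member was called in any population, beside 0%, 0.012% and 0.00605% of all genes in 2N and 0%, 0% and 0% in Ts mice (CA1 PNs, CA3 PNs and DGCs). The 1 DEG among the members in 2N mice was Tiam2 in DGCs, beside 5.82% of all genes there (3.27% in CA1 PNs and 4.9% in CA3 PNs, with no member). Its 2N values went from 69.1 to 86.3 CPM on ChN to 73.7 to 136 CPM on ChP, with overlap, and an LFC of 0.40 (SE 0.117, unadjusted p = 0.00078, adjusted p = 0.68). The value of 136 CPM came from the library of mouse 15-296, which held only 412004 counts. In Ts mice the medians were 143 and 142 CPM, with an LFC of 0.07. The genotype LFC of Tiam2 in DGCs on ChP minus that on ChN was -0.34 (SE 0.152, unadjusted p = 0.028, adjusted p = 1). This difference shares its 2N libraries with the diet comparison above. In the test of genotype by diet 0%, 0% and 0% of all genes were called in CA1 PNs, CA3 PNs and DGCs, and 3.22%, 4.87% and 3.97% were DEGs.

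In Ts mice 2 members were DEGs by diet. Rac3 in CA1 PNs ran from 1.23 to 3.11 CPM on ChN and from 2.28 to 8.17 CPM on ChP (LFC 1.11, SE 0.51, unadjusted p = 0.035, adjusted p = 1), beside 3.05% of all genes as DEGs. Dock3 in CA3 PNs ran from 183 to 217 CPM on ChN and from 205 to 238 CPM on ChP (LFC 0.17, SE 0.082, unadjusted p = 0.046), beside 4.19%. In DGCs of Ts mice there was none, beside 3.81%. Tiam1 was no DEG by diet in either genotype. Depth differed between the diets within some groups: CA1 libraries of Ts mice had a median of 1156470 counts on ChN and 1274304 on ChP, and CA3 libraries 1474704 and 1397938. DGC libraries had medians of 1203018 and 889242 in Ts mice and of 1038020 and 929066 in 2N mice. The part of depth in the differences by diet was not tested.

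Of the list genes outside the members, none was called by diet. In 2N mice 1 of 123 was a DEG in CA1 PNs (beside 3.27% of all genes), 10 of 123 in CA3 PNs (beside 4.9%) and 9 of 124 in DGCs (beside 5.82%). In Ts mice these were 2 (beside 3.05%), 2 (beside 4.19%) and 8 (beside 3.81%).

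To show where the 10 genes were expressed, populations were compared in 2N mice with the mouse as a block. In this comparison calls are common: 23.1%, 33.9% and 43.3% of all genes were called on ChN, and 24.6%, 33% and 42% on ChP (CA1 minus CA3, CA1 minus DGC, CA3 minus DGC). Of the members, 4, 4 and 8 of 10 were called on ChN and 4, 5 and 8 on ChP. Over all libraries Tiam1 had the largest difference of the 10 genes between either PN type and DGCs, with LFCs of -4.86 on ChN and -4.69 on ChP for CA3 minus DGC and -3.78 and -3.74 for CA1 minus DGC. Its level in CA3 PNs was thus 0.0345 and 0.0388 of that in DGCs. Tiam2 had LFCs of -3.85 and -4.30 for CA3 minus DGC, both past the threshold. For CA1 minus DGC its LFC by edgeR was -1.69 (adjusted p = 0.13) on ChN and -2.18 (adjusted p = 0.012) on ChP. DESeq2 with the same block called the ChN difference (-3.21, adjusted p = 0.0042). Without mouse 17-21, whose CA1 library was high in CA2 markers, the ChN value was -2.61 (adjusted p = 0.032). Without all CA1 libraries high in CA2 markers the values became -5.08 (adjusted p = 4e-11) and -4.84 (adjusted p = 0.00042). Its LFC for CA1 minus CA3 turned from 2.16 and 2.11 to -1.53 and -0.68 without them, none of these past the threshold by edgeR. DESeq2 with the block and all libraries called it on ChP (1.92, adjusted p = 0.029).

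Between either PN type and DGCs, the other members differed by less than Tiam1 and Tiam2 did. For CA1 minus CA3 this did not hold for Rac3, with LFCs of -1.26 and -0.96 beside 1.07 and 0.95 for Tiam1. Neither LFC of Rac3 passed the adjusted threshold. Kalrn had its lowest level in CA3 PNs, with 0.91 and 0.72 for CA1 minus CA3 and -0.97 and -0.89 for CA3 minus DGC. Pak1 was highest in CA3 PNs, with 1.36 and 1.32 for CA3 minus DGC and -0.40 and -0.45 for CA1 minus CA3. Rac3 was also higher in CA3 PNs than in DGCs (1.83 and 2.20), though on ChN not without mouse 17-154 (1.41, adjusted p = 0.064). Dock3 was lower in CA3 PNs (-0.51 and -0.54) and CA1 PNs (-0.35 and -0.45) than in DGCs. Without the libraries high in CA2 markers its CA1 minus DGC call was lost (adjusted p = 0.13 and 0.06). Arhgef7 was lower in CA3 PNs than in CA1 PNs and DGCs, and Trio was higher in both PN types than in DGCs by 0.34 to 0.42. The Trio difference between CA3 PNs and DGCs was lost with library totals in place of TMM (0.17 and 0.12), a scaling that moved the median of all genes by -0.194 and -0.219. Rac1 and Pak3 were not called between any of the populations under TMM.

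Levels per length (TPM, transcript abundance scaled by transcript length and library) set the genes beside each other. In DGCs of 2N ChN mice Kalrn had the highest median (411 TPM, range 374 to 562), above the range of all others. Rac1 (118), Tiam1 (111, range 101 to 162) and Trio (106) came next with overlapping ranges. Dock3 (61), Pak3 (55.9), Arhgef7 (54.5), Pak1 (46.8) and Tiam2 (46.7) followed and also overlapped, and Rac3 was lowest at 1.97 TPM. In CA3 PNs Tiam1 (5.47) and Tiam2 (2.75) had the lowest medians, below Rac3 (11.5), and in CA1 PNs the medians were 7.88 for Tiam1, 2.48 for Rac3 and 1.25 for Tiam2. Kalrn, Rac1 and Trio were the 3 highest there, at 309, 116 and 107 TPM in CA1 PNs and 222, 140 and 128 TPM in CA3 PNs. Tiam1 thus moved from among the lowest of the 10 in PNs to the level of Rac1 in DGCs.

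**Figure D5:**
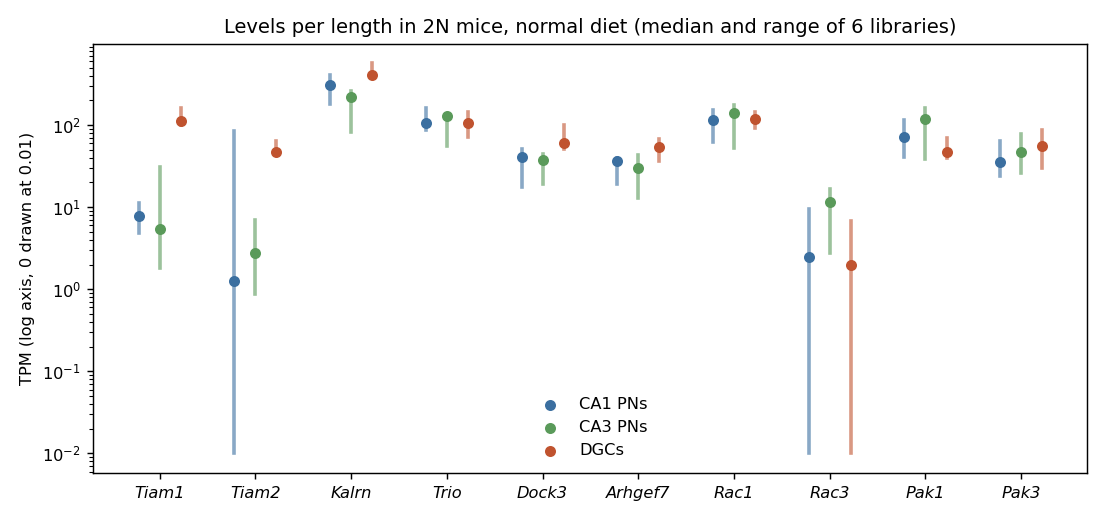
Level per length of the 10 genes in TPM on a log axis, as the median (point) and range (line) of 6 2N ChN libraries in CA1 PNs, CA3 PNs and DGCs, with values of 0 drawn at 0.01. Tiam1 has a median of 111 TPM in DGCs, against 7.88 in CA1 PNs and 5.47 in CA3 PNs, while Rac1 is at 116 to 140 in all 3 populations.

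TPM rests on the transcript length that the estimation assigned. For Tiam1 in DGCs it was 4789 to 6797 bases (median 6095), under the longest annotated transcript of 7807 bases. It was also under Tiam1-225, which has 7200 bases and the same 4773 coding bases as the longest. For Tiam2 it was 1751 to 2612 bases (median 2077), well under its longest transcript of 8844 bases. The annotation holds 28 transcripts of Tiam1 (19 with a coding sequence) and 12 of Tiam2 (7 with one). Of the latter, Tiam2-208 and Tiam2-210 are typed as subject to nonsense-mediated decay. The coding transcripts Tiam2-201, Tiam2-202, Tiam2-211 and Tiam2-212 have 8547 to 8844 bases, whereas Tiam2-207, with no coding sequence defined, has 2131. Which transcripts gave the Tiam1 or Tiam2 counts was not tested.

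The genes whose log2 CPM varied most like that of the GEFs were sought over 14924 genes, by the mean of Pearson's r within 27 CA1, 26 CA3 and 28 DGC libraries. For Tiam1 these were Itsn1 (mean r 0.75), Tiam2 (0.70), Dscam (0.67), Pcp4 (0.64) and Dop1b (0.61). Itsn1, Dscam, Pcp4 and Dop1b all lie on chromosome 16, and Tiam1 and Itsn1 reached r = 0.92 in DGCs. For Tiam2 they were Tiam1 (0.70), Ptpn5 and Pcp4 (0.68 each), Disp3 (0.64) and Ppm1l (0.62), of which Pcp4 reached 0.92 in CA1 PNs. These r values describe the libraries only, which share genotype, diet and, in CA1 PNs, the CA2 markers.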

How the data were processed

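The 81 libraries came from 28 mice, and groups were taken from the labels, except that the CA3 library of mouse 15-145 was placed as 2N against its own label, as both other libraries of that animal are 2N. Reads from a stranded total RNA kit were trimmed with Trimmomatic 0.39, aligned with STAR and quantified with RSEM by the authors, who deposited estimated (expected) counts per gene, with TPM and a mean transcript length per library. The submitters' notes also name FastQC 0.11.9 and Picard 2.26.2 and both GRCm39 and mm10. The deposited expected counts were rounded, since 0.784% were not whole. The authors' sequencing metrics, used as covariates in the study, were not used here.

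Genes above 0.1 CPM in at least 10 libraries of a fit were tested with the robust quasi-likelihood test of edgeR 4.0.16 (TMM; R 4.3.3) over all genes, with Benjamini-Hochberg adjustment (threshold 0.05). Populations were compared with the mouse as a block, because libraries of a mouse share the animal; the median correlation of their deviations was 0.05 (CA1 and CA3), 0.05 (CA1 and DGC) and 0.06 (CA3 and DGC). DESeq2 1.42.0, limma-voom (limma 3.58.1), other scaling and filters, and leaving out each library were tried. The code was tested on simulated data, in which genes above the median level were given an LFC of 0.585 in size. Past the adjusted threshold, 9% and 35% of these were recovered in CA1 PNs (ChN and ChP). In CA3 PNs the shares were 72% and 62%, and in DGCs 66% and 64%. Members, lists of pathway and marker genes and rules for named genes were chosen with earlier results of these data known. Named genes were all 10 members, called list genes (up to 8 a comparison), neighbors of Tiam1 and Tiam2, and the 5 genes most like each. Triplicated genes were those the study names. Promoter sequences are from RefSeq.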

Additional observations from a re-analysis of the deposited data

Results flagged for a closer look

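In 12 of 120 groups of 5 to 9 libraries, the highest or lowest value of a member lay far from the others relative to the range of the group. Chance alone gives about 1 in 20 such groups. Tiam1 was at 99.9 CPM in the CA1 library of Ts mouse 16-357 (ChN), where the next library was at 44.8, and Tiam2 was at 147 CPM in the same library, where the next was at 9.67. This library is among the 10 with high CA2 markers. The CA3 library of the same mouse had Tiam2 at 18.5 CPM, with the next at 6.44. In the CA3 library of Ts mouse 15-140 (ChP), which carried dentate markers, Tiam1 was at 113 CPM (next 41.8) and Tiam2 at 22.7 CPM (next 9.46).

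Kalrn was at 1040 CPM in the CA3 library of 2N mouse 17-21 on ChN (next 919), at 2030 CPM in the CA1 library of 2N mouse 15-336 on ChP (next 1560) and, as the lowest of its group, at 1310 CPM in the DGC library of Ts mouse 17-192 on ChN (next 1560). The first of these mice and 15-336 also had CA1 libraries with high CA2 markers. Trio was at 570 CPM in the CA3 library of Ts mouse 15-36 on ChP (next 521). Arhgef7 was lowest at 137 CPM in the DGC library of 2N mouse 15-145 on ChN (next 161). Rac3 was at 5.99 CPM in the CA1 library of 2N mouse 15-296 (next 3.51) and at 12.3 CPM in the CA3 library of 2N mouse 15-334 (next 6.86), both on ChP. The part of markers or depth in these values was not tested.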

How the results depend on the processing

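Of 2984 LFCs of the 10 genes under other settings, 2956 kept their direction and their side of the adjusted threshold, or changed sign without passing it in either setting (174), 8 lost the threshold, 20 gained it and none reversed. Tiam1 and Tiam2 in DGCs on ChN were called under each setting run, with 2 called and 4 DEGs without any library. The counts of members that moved by over 1.5 times were these. With the CA2 marker mean as a covariate, DEGs in CA1 PNs went from 0 to 1 on ChN (Kalrn), from 0 to 1 on ChP (Tiam2, also called, 0 to 1) and from 0 to 2 with the diets averaged (Tiam1 and Tiam2), as they did without the 10 libraries high in CA2 markers (2). With limma-voom, DEGs in DGCs on ChP went from 3 to 5 and calls in CA3 PNs with the diets averaged from 0 to 1 (Tiam1). DEGs by diet in CA3 PNs of Ts mice went from 1 to 0 with DESeq2, with library totals and with the CA3 library of 15-145 counted as Ts, and the DEG for genotype by diet in DGCs went from 1 to 0 with DESeq2. Leaving out 1 library gave 0 to 1 DEGs in CA1 PNs on ChN and ChP, 0 to 1 in CA3 PNs on ChP, 3 to 5 in DGCs on ChP (calls 1 to 2), and 2 to 4 in CA3 PNs averaged (calls 0 to 1). The causes were not tested.

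Without the replicate block, the populations gave 4, 4 and 8 called members on ChN and 5, 5 and 8 on ChP, against 4, 5 and 8 with it, since Tiam2 in CA1 minus CA3 on ChP had an LFC of 2.37 (adjusted p = 0.041). Without the block no other call changed. With library totals, CA3 minus DGC became a call for Pak3 (-0.37 and -0.38), and CA1 minus DGC for Arhgef7 (-0.29 and -0.25) and, on ChP, Kalrn (-0.30). DESeq2 called Tiam2 in CA1 minus DGC on ChN and in CA1 minus CA3 on ChP, and without a filter on low counts edgeR called it on ChN in both (adjusted p = 5.5e-17 and 3.4e-18). Depth limits Rac3 in all populations, and Tiam2 in CA3 PNs and in the CA1 libraries low in CA2 markers.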

Other observations

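Among pathway genes below the adjusted threshold, values in DGCs were lower in Ts mice for Grin1, the obligate NMDA receptor subunit, with LFCs of -0.11 on ChN (SE 0.066) and -0.22 on ChP (SE 0.065) and -0.16 with the diets averaged (SE 0.046, adjusted p = 0.06). Chn2, which encodes the Rac GAP beta-chimaerin, had LFCs of 1.49 (SE 0.39) on ChN and 0.43 (SE 0.409) on ChP (averaged adjusted p = 0.061). Elmo2, a partner of Dock proteins, had an LFC of 0.26 (SE 0.086) in CA3 PNs and of -0.22 (SE 0.092) in DGCs on ChN, both DEGs, with adjusted p-values of 0.23 and 0.49. The difference between these populations was not tested for Elmo2. These 3 genes were picked after their values were seen.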
